A study of Mus musculus with 30 samples.

Results

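Thyroids carrying the Braf V600E allele were compared by RNA-seq after treatment with CH5126766 (CKI) or with vehicle. The 6 libraries were taken by their labels, as those of the Braf V600E genotype with no further gene deleted, and make up 6 of the 28 libraries analysed: 3 treated with CKI and 3 with vehicle. Dosing lasted 8 days, and tissue was taken about 2 h after the final dose. The vehicle thyroids carry Braf V600E as the CKI thyroids do, so the comparison is of drug and no drug within mutant tissue. The other libraries came from Braf V600E thyroids that also lacked Arid1a (6 libraries), Arid2 (4 libraries) or Smarcb1 (6 libraries), each under CKI or vehicle, from untreated thyroids that lacked Arid1a alone (3 libraries) and from untreated wild-type thyroids (3 libraries). The wild-type libraries serve here to give a range of levels. The promoter or Cre that switches on the Braf allele, the age of the mice and any pooling of animals are not given in the sources used here. Per the labels, removed thyroids were flash frozen for mice named there as WT, Arid2 and Smarcb1, and a second text describes YFP-positive cells sorted from dissociated thyroids. Both texts stand on every sample and neither names the Braf V600E mice without a deletion, so which one holds for these libraries is unsure.

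BRAF V600E is a kinase that signals without an upstream cue and keeps MEK and ERK active. CH5126766 is an allosteric MEK inhibitor that also holds RAF in an inactive complex with MEK. Thyroid follicular cells take up iodide across their basal membrane, pass it into the follicle lumen and couple it to thyroglobulin, under the control of thyrotropin and of the transcription factors Pax8, Nkx2-1 and Foxe1. Loss of this programme in thyroid tumours with active ERK signalling is well known, and MEK inhibitors have been used to restore iodide uptake.

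All 5 thyrocyte markers (Tg, Pax8, Nkx2-1, Foxe1 and Tshr) were counted in every Braf V600E library, summing to 13183, 8153 and 20888 CPM in CKI libraries and to 386, 1143 and 418 CPM in vehicle libraries. Read counts per gene summed to between 23958087 and 29830962 per library. Pearson correlations of log CPM (read counts scaled to a common library size) lay between 0.9739 and 0.9761 among the CKI libraries and between 0.9343 and 0.9748 among the vehicle libraries. Vehicle library 2 stood apart: it had 17667 genes with a count, against 19853 to 21072 in the other 5 libraries, and the lowest scaling factor, 0.7228. The share of counts held by the 10 most abundant genes was 6.476% to 8.272% in CKI libraries and 10.57% to 18.46% in vehicle libraries. The groups mixed sexes: the Y-linked Ddx3y had 117, 78.4 and 55.1 CPM in CKI libraries and 149, 0.0362 and 33.1 CPM in vehicle libraries. Xist, which silences 1 X chromosome in females, had 0.195, 0.169 and 84.1 CPM in CKI libraries and 0.102, 315 and 116 CPM in vehicle libraries, so that library 5 of each group holds both. Braf itself had 41.1, 25.8 and 33.9 CPM in CKI libraries and 21.3, 34 and 21.1 CPM in vehicle libraries. The log2 fold change was 0.4 ± 0.31 (SE), adjusted p = 0.422. Counts per gene do not show the V600E base change. In every list of 3 values below, CKI libraries stand in the order 1, 4 and 5, and vehicle libraries in the order 2, 4 and 5. The labels do not say whether the libraries of a group are separate animals. By these sex markers, vehicle libraries 2, 4 and 5 were not repeats of the same tissue, nor was CKI library 5 a repeat of CKI libraries 1 or 4. Whether CKI libraries 1 and 4, or libraries of the other groups, are separate animals is not known. Part of the spread behind every p-value may therefore be technical. CPM are not scaled to gene length, so levels are not compared between genes.

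CKI was accompanied by higher levels of iodide-handling and thyroid hormone genes. Lower levels were found for osteopontin, mast cell and basophil proteases, leukocyte genes and 3 of 11 surfactant genes. Of 19016 genes tested, 2466 (13.0%) passed an adjusted p of 0.05 in edgeR's quasi-likelihood test, of which 1513 (7.96%) were higher and 953 (5.01%) lower in CKI libraries than in vehicle libraries. All log2 fold changes are of CKI over vehicle, and their median over all genes tested was -0.0132. A value in brackets with an adjusted p is the gene's log2 fold change. The 3 CKI libraries lay above the 3 vehicle libraries for 3445 genes (18.1%) and below them for 2944 genes (15.5%). Call numbers depended on single libraries, with 726 genes called without vehicle library 2, 806 without CKI library 1, 899 without CKI library 4 and 1353 without vehicle library 4. The balance of directions did too, since without vehicle library 4 575 of those genes were higher and 778 lower in CKI libraries. Of the 2466 genes, 463 were called also in each of the 6 fits that left out 1 library, 322 of them higher and 141 lower in CKI libraries.

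Levels of leukocyte genes and of immediate early genes moved with the treatment, and the fits that carry these levels as a covariate bear on every group below. Mean leukocyte log2(CPM + 1) was 3.78 to 4.87 in CKI libraries and 6.40 to 7.26 in vehicle libraries. For immediate early genes it was 8.22 to 8.98 and 6.55 to 7.61. As both levels separate the groups, a call lost in these fits cannot tell an effect of the drug from one that goes with these levels. With the mean leukocyte level of each library in the model 94 genes were called, 86 of them shared with the first fit, and with the mean immediate early level 120 genes were called, 115 of them shared. Across all 16 alternative fits, 62 genes were called every time, 47 of them higher and 15 lower in CKI libraries. These include genes picked here after their values were seen. Among the 47 are Slc5a5, Tg, Duoxa2, Tshr, Lrp2, Ppp1r1b, Slc26a10 and Bcl2, and among the 15 are Hmga2, F2rl2, Prkg2, the surface receptor genes Tnfrsf23 and Tnfrsf26 and the annexin Anxa2, which binds membranes in a calcium-dependent way.

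Most genes of iodide handling and thyroid hormone synthesis rose under CKI. Of 18 genes of this machinery 10 were higher, none was lower and 8 did not pass, with a median log2 fold change of 2.53, beside 7.96% of all genes called higher and a median of -0.0132. In bulk tissue, fewer cells of a type and less RNA per cell cannot be told apart, here and in every group below.

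Slc5a5, the sodium iodide symporter that brings iodide into the follicular cell, had 605, 186 and 171 CPM in CKI libraries, against 0.102, 0.253 and 3.26 CPM in vehicle libraries. Each CKI library was far above each vehicle library, of which numbers 2 and 4 were close to no expression. The log2 fold change was 8.03 ± 1.36 (SE), adjusted p = 0.00132, the largest rise of any gene that met the naming rule. Its RefSeq promoter is shown with those of Duoxa2, the maturation factor that carries the dual oxidase Duox2 to the membrane, and of Pax8, the paired-box factor that activates thyroid genes, because these 3 had the smallest p among the called thyroid genes that have a promoter in the table. Each line gives the 250 bases before the start site, 5′ to 3′ on the gene's strand, with the 50 bases nearest the start site in capitals, from build GRCm38.p6: Duoxa2 at chr2:122298650-122298899 on the plus strand, Slc5a5 at chr8:70892758-70893007 on the minus strand and Pax8 at chr2:24475600-24475849 on the minus strand.
Duoxa2: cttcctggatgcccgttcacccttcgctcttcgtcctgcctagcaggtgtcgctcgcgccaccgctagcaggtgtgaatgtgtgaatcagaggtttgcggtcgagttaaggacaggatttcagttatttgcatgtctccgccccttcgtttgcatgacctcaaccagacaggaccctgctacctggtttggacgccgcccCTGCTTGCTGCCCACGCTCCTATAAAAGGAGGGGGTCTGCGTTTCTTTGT
Slc5a5: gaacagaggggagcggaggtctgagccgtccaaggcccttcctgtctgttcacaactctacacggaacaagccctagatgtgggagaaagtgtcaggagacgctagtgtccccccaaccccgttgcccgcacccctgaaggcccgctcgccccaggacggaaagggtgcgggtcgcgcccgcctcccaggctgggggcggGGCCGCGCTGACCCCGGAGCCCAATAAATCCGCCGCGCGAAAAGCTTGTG
Pax8: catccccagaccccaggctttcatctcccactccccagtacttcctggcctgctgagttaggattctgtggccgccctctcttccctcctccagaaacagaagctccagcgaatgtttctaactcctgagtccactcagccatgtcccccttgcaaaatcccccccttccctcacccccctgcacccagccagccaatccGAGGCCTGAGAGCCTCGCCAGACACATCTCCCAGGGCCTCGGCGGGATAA

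These 3 promoters were searched on both strands, in windows from 250 bases before to 50 bases after the start site, for the Nkx2-1 core CTCAAG, the AP-1 site TGACTCA and the ETS site CCGGAAG, and none of them held any of the 3 strings. Of 23 thyroid hormone and thyroid factor genes tested, 16 matched a promoter by symbol, and of the 14 called members 8 did. CTCAAG stood in 1 of the 8 promoters (12.5%), against 15.9% of all 32851 promoters in the table and 14.5% of those of genes tested. TGACTCA stood in 3.11% of promoters of genes higher in CKI libraries, in 6.62% of those of genes lower in CKI libraries and in 4.28% of those of genes tested. CCGGAAG stood in 14.6% of promoters of the higher genes, in 15% of the lower ones and in 13.7% of those of genes tested. A string match is not a binding site, and the other members are described by their values alone.

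Further genes of iodide transport passed in part. Slc26a7, an anion exchanger needed for iodide to reach the lumen, had 75.1, 44.9 and 83.3 CPM in CKI libraries, against 10.6, 15.3 and 6.45 CPM in vehicle libraries, with no overlap and a log2 fold change of 2.65 ± 0.62 (SE), adjusted p = 0.0109. Slc26a4 (pendrin), an apical iodide exchanger, was low, at 8.05, 4.51 and 1.76 CPM in CKI libraries and 0.0509, 1.05 and 0.59 CPM in vehicle libraries. Its log2 fold change was 3.05 ± 0.98 (SE), adjusted p = 0.0455, and the call was lost in 5 of the 6 fits without 1 library, with an adjusted p of 0.166 without CKI library 1. The channel Ano1, which can pass iodide into the lumen, had 88.1, 45.3 and 116 CPM in CKI libraries and 30.9, 78.2 and 103 CPM in vehicle libraries, and overlapped between groups (0.23, adjusted p = 0.823). Slc5a8, an apical monocarboxylate carrier once proposed to carry iodide, had 3.02, 4.72 and 5.13 CPM in CKI libraries and 0.255, 1.92 and 4.56 CPM in vehicle libraries, and did not pass (0.92, adjusted p = 0.554). The potassium channel pair that sustains iodide uptake did not pass either: Kcnq1 had 17, 18.4 and 19.6 CPM in CKI libraries and 3.72, 18 and 13.2 CPM in vehicle libraries. Kcne2 was at 0.162, 0.0843 and 0 CPM in CKI libraries and 0.764, 0.326 and 0.354 CPM in vehicle libraries.

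Hormone assembly takes place on thyroglobulin with hydrogen peroxide made at the lumen. Tg, the scaffold on which hormone is made, had 11536, 7268 and 19641 CPM in CKI libraries, against 161, 894 and 196 CPM in vehicle libraries. The groups were separated by a wide gap, and vehicle library 4 was the highest of its group. The log2 fold change was 4.94 ± 0.76 (SE), adjusted p = 0.000523. Duoxa2 had 94.9, 42.8 and 56.1 CPM in CKI libraries, against 1.58, 1.45 and 1.77 CPM in vehicle libraries. The log2 fold change was 5.33 ± 0.75 (SE), adjusted p = 0.000237. The oxidases that make hydrogen peroxide were low in both groups: Duox2 had 3.44, 0.927 and 3.55 CPM in CKI libraries and 0, 1.09 and 0.354 CPM in vehicle libraries (2.4, adjusted p = 0.0935). Duox1 had 3.02, 4.47 and 3.65 CPM in CKI libraries and 0.0509, 2.06 and 1.1 CPM in vehicle libraries (1.77, adjusted p = 0.171). The second maturation factor Duoxa1 had 10.9, 11.2 and 8.23 CPM in CKI libraries and 3.31, 8.43 and 3.15 CPM in vehicle libraries (1.02, adjusted p = 0.308).

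Genes of iodide recycling and deiodination, and the thyrotropin receptor, were next examined. Iyd, which strips iodine from unused iodotyrosines, had 1309, 1353 and 1154 CPM in CKI libraries, against 219, 153 and 177 CPM in vehicle libraries, a tight pair of groups with a log2 fold change of 2.8 ± 0.54 (SE), adjusted p = 0.00397. Dio1, the deiodinase of the differentiated thyroid, had 146, 67.3 and 57 CPM in CKI libraries, against 0.611, 3.22 and 5.19 CPM in vehicle libraries. On the log2 scale the fold change was 4.89 ± 0.99 (SE), adjusted p = 0.00514. Dio2, the other activating deiodinase, was low, at 0.519, 0.506 and 0.482 CPM in CKI libraries and 0.204, 4.85 and 1.81 CPM in vehicle libraries, and did not pass (-2.18, adjusted p = 0.0649). Tshr, the thyrotropin receptor, had 635, 248 and 353 CPM in CKI libraries, against 14.5, 17.4 and 15.9 CPM in vehicle libraries. The vehicle libraries were within a narrow band and all CKI libraries were far above it. Its log2 fold change was 4.69 ± 0.47 (SE), adjusted p = 9.03e-06. Leaving out 1 library at a time left between 8 and 10 of the 18 genes higher and up to 1 lower. The 10 called genes, of which 8 are described, did not overlap between groups. Of all genes, 18.1% had every CKI library above every vehicle library. Because the same libraries gave the calls, this lack of overlap is no separate support. In addition, the fits with the leukocyte and the immediate early level called 6 and 5 of the 18 genes.

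Most of the thyroid transcription factors rose as well. Of 5 factors 4 were higher, none was lower and Glis3 did not pass, beside 7.96% of all genes called higher. The median log2 fold change was 1.98. Pax8 had 979, 593 and 869.7 CPM in CKI libraries, against 204, 221 and 196 CPM in vehicle libraries. Its log2 fold change was 1.98 ± 0.36 (SE), adjusted p = 0.00259. Foxe1, a forkhead factor of thyroid development, had 9.05, 6.32 and 4.92 CPM in CKI libraries, against 0.713, 0.796 and 0.747 CPM in vehicle libraries (3.16 ± 0.57 (SE), adjusted p = 0.0022). Neither pair of groups overlapped. Nkx2-1, a homeobox factor shared with lung, had 23.8, 38.2 and 18.3 CPM in CKI libraries, against 6.11, 10.7 and 9.71 CPM in vehicle libraries (1.59, adjusted p = 0.023). Hhex, a homeobox factor of thyroid and liver, had 383, 414 and 138 CPM in CKI libraries, against 51, 58.7 and 62 CPM in vehicle libraries (2.44, adjusted p = 0.0139), and CKI library 5 was the lowest of its group. Glis3, a zinc-finger factor needed for hormone synthesis, had 19.4, 15.6 and 20.7 CPM in CKI libraries and 16.5, 21.2 and 14.9 CPM in vehicle libraries, fully overlapping (0.09, adjusted p = 0.945). The calls of Nkx2-1 and Hhex were lost without CKI library 4 and without vehicle library 2, Nkx2-1 also without CKI library 1, with adjusted p up to 0.108 and 0.059, and the leukocyte and immediate early covariates left 1 and 0 of the 4 factors called.

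**Figure D1:**
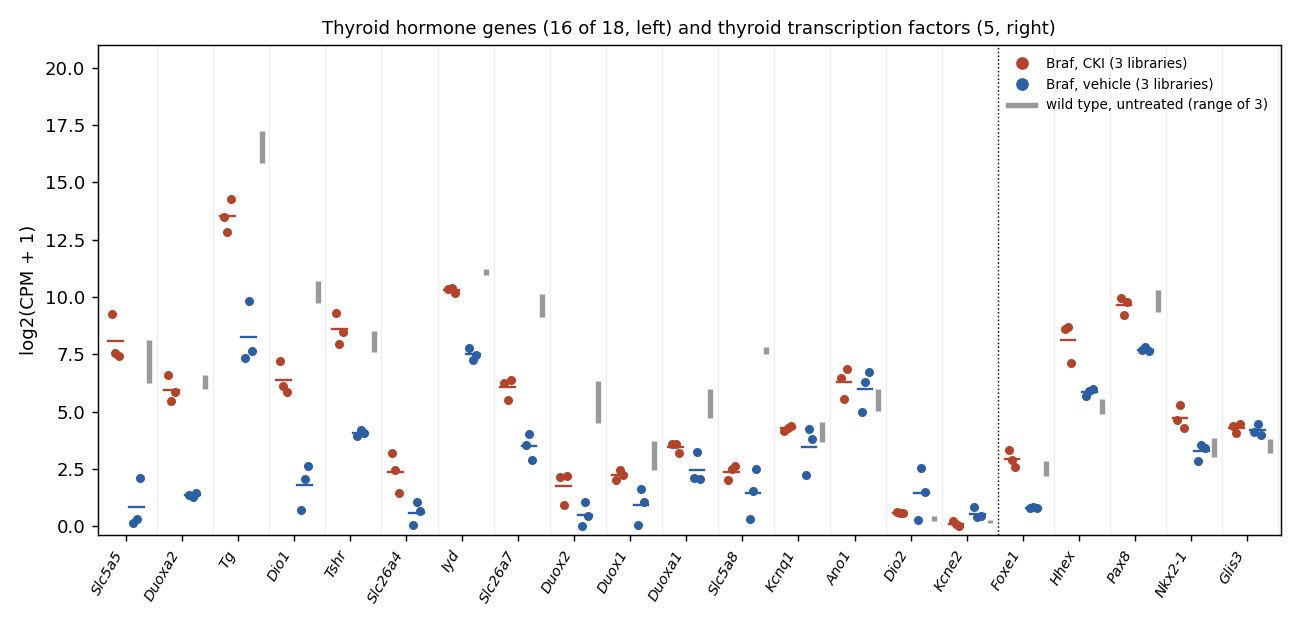
Levels of 16 of the 18 thyroid hormone genes (left of the dotted line) and of 5 thyroid transcription factors (right), as log2 of CPM plus 1. Each point is 1 library, the short line is the group mean (n = 3 each), and the grey bar spans the 3 untreated wild-type libraries. CKI libraries lie above all vehicle libraries for the called genes, while genes such as Glis3, Ano1, Kcnq1 and Slc5a8 overlap. Heights are not scaled to gene length and are not to be compared between genes.

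The thyroid genes were set beside the untreated wild-type libraries. Some had at least 1 CKI library in or above the wild-type range, and others had every CKI library below it. The plot of thyroid gene levels by library shows the wild-type range as grey bars. Slc5a5 spanned 73.9 to 280.2 CPM in wild-type libraries, Duoxa2 61.8 to 96.7 CPM, Tshr 194 to 369.7 CPM and Pax8 656 to 1246 CPM, and the CKI levels above touch or pass these ranges. Tg spanned 58871 to 155494 CPM in wild-type libraries, so that all 3 CKI libraries were below it. Dio1 at 855 to 1636 CPM, Slc26a7 at 550.1 to 1122 CPM, Slc5a8 at 179 to 224 CPM and Iyd at 1975 to 2386 CPM in wild-type libraries were likewise above every CKI library. In all, 9 of the 18 genes had every CKI library below the wild-type range, 2 had every one above it, and 7 had neither. For vehicle libraries these counts were 13, 2 and 3. Hhex, Nkx2-1 and Glis3 had every CKI library above the wild-type range. No test was made of this, since the wild-type thyroids were untreated, were flash frozen by the labels and differ in other cells: calcitonin (Calca), the hormone of thyroid C cells, had 18.4, 78.8 and 82.5 CPM in CKI libraries, 67.4, 4.56 and 7.16 CPM in vehicle libraries and 7622 to 30270.1 CPM in wild-type libraries, and parathyroid hormone (Pth) had 65.9, 54.3 and 43.2 CPM in CKI libraries, 39.4, 17.7 and 36.5 CPM in vehicle libraries and 1552 to 5427 CPM in wild-type libraries.

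Genes downstream of Tshr and genes of thyroglobulin turnover and hormone action are set beside 7.96% of all genes called higher and 5.01% called lower. Of 15 genes of cyclic AMP signalling 1 was higher and none was lower, a share near that of all genes, with a median log2 fold change of 0.418. The call was of Pde10a, a phosphodiesterase, at 7.69, 5.01 and 5.37 CPM in CKI libraries, against 0.357, 2.31 and 1.57 CPM in vehicle libraries (2.07, adjusted p = 0.0477), and it was lost in each of the 6 fits without 1 library. Gnas, the stimulatory G protein subunit, whose locus holds overlapping transcripts that make its count uncertain, had 4.32, 5.18 and 2.24 CPM in CKI libraries and 0.255, 1.45 and 0.904 CPM in vehicle libraries (2.15, adjusted p = 0.0567). Of 9 genes of thyroglobulin uptake and proteolysis 1 was higher and 2 were lower. Lrp2 (megalin), the endocytic receptor that takes up thyroglobulin, had 90.2, 91.9 and 90.5 CPM in CKI libraries, against 3.06, 12.3 and 6.64 CPM in vehicle libraries, with a log2 fold change of 3.62 ± 0.55 (SE), adjusted p = 0.000473 and the CKI libraries within a few CPM of each other. The lysosomal proteases Ctsb and Ctsd did not pass, at 0.09, adjusted p = 0.857 and -0.48, adjusted p = 0.121. Both lower genes, the proteases Ctss (-2.18, adjusted p = 0.0295) and Lgmn (-0.94, adjusted p = 0.0471), are also expressed by macrophages. Ctss turned to a log2 fold change of 0.66 with the leukocyte level as covariate. Of 8 genes of hormone transport and nuclear action 1 was higher and none was lower: Thra, the alpha hormone receptor, had 15.7, 12.3 and 15.4 CPM in CKI libraries, against 5.81, 7.09 and 8.77 CPM in vehicle libraries (1.0, adjusted p = 0.0462), and every fit without 1 library lost this call, as 4 and 5 of these 6 fits did for Ctss and Lgmn. The median of these 8 genes was -0.643, or -0.153 with 1 gene that has a group at 0 counts set at its bound.

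Beyond the thyroid lists, the largest rises were of genes with varied roles. Ppp1r1b (DARPP-32), an inhibitor of protein phosphatase 1 downstream of cyclic AMP, had 662, 522 and 239 CPM in CKI libraries, against 5.65, 8.43 and 7.51 CPM in vehicle libraries. Between groups it differed by a log2 fold change of 6.04 ± 0.89 (SE), adjusted p = 0.000363. Slc26a10, a member of the anion exchanger family, had 336, 135 and 121 CPM in CKI libraries, against 2.29, 4.16 and 3.38 CPM in vehicle libraries (5.91 ± 0.56 (SE), adjusted p = 5.96e-06). Kcnh3, a voltage-gated potassium channel, had 186, 116 and 97.5 CPM in CKI libraries, against 6.83, 2.68 and 3.03 CPM in vehicle libraries (5.0 ± 0.74 (SE), adjusted p = 0.000363). By the naming rule none of the 3 overlapped between groups, and vehicle levels were uniformly low.

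Slc14a2, a urea transporter, had 276, 85.2 and 139 CPM in CKI libraries, against 4.18, 8.79 and 4.8 CPM in vehicle libraries (4.81, adjusted p = 0.000363). Sod3, the extracellular superoxide dismutase, had 1529, 874 and 424 CPM in CKI libraries, against 5.76, 29.9 and 55.9 CPM in vehicle libraries (4.95, adjusted p = 0.00427), with a wide spread in both groups. Adm2, a peptide of the calcitonin family, had 34.4, 10.4 and 28.8 CPM in CKI libraries, against 1.12, 0.434 and 0.747 CPM in vehicle libraries (5.01, adjusted p = 0.00147). Smtnl2, Igfn1 and Amdhd1, an enzyme of histidine breakdown, completed the named rises with log2 fold changes of 5.41, 4.97 and 4.81 and adjusted p of 0.000543, 0.0042 and 0.000598. Igfn1 was at 20, 1.81 and 12 CPM in CKI libraries, with library 4 far below the other two, and at 0, 0.326 and 0.708 CPM in vehicle libraries. Each of these rises remained called in every fit without 1 library. Sod3 (5.72 to 12.9 CPM) and Adm2 (1.08 to 2.83 CPM) were low in wild-type libraries, while Slc26a10 (305 to 534 CPM), Kcnh3 (172 to 361 CPM) and Igfn1 (56.4 to 97.3 CPM) were higher there than in any vehicle library.

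Falls were led by a vitamin D hydroxylase, mast cell and basophil proteases and a secreted phosphoprotein. Spp1 (osteopontin), a secreted matrix protein abundant in thyroid cancers, had 446, 975 and 816 CPM in CKI libraries, against 58603, 14985 and 44041 CPM in vehicle libraries. On the log2 scale the fold change was -5.72 ± 0.95 (SE), adjusted p = 0.00104. Even the highest CKI library was more than 10 times below the lowest vehicle library. Cyp24a1, which inactivates vitamin D, had 0.0325, 0.0421 and 0.379 CPM in CKI libraries, against 1.78, 10.9 and 21 CPM in vehicle libraries (-6.15 ± 1.57 (SE), adjusted p = 0.0175), and lost its call without CKI library 1 (adjusted p = 0.0774) or CKI library 4. Prkg2, a cyclic GMP-dependent kinase, had 0.844, 0.927 and 0.344 CPM in CKI libraries, against 25.6, 18 and 26.5 CPM in vehicle libraries (-5.05 ± 0.63 (SE), adjusted p = 8.99e-05). F2rl2, a protease-activated receptor, had 0.682, 0.801 and 0.826 CPM in CKI libraries, against 22.5, 23.4 and 20.3 CPM in vehicle libraries (-4.83 ± 0.68 (SE), adjusted p = 0.000237). Both were tight within groups.

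Tnnt2, the cardiac form of troponin T, had 0.325, 1.14 and 0.585 CPM in CKI libraries, against 12.8, 20.3 and 20.7 CPM in vehicle libraries (-4.72, adjusted p = 0.000363). Tmem212 had 0.487, 0.548 and 0.93 CPM in CKI libraries, against 62.7, 8.93 and 23.5 CPM in vehicle libraries (-5.59, adjusted p = 0.0101). Calcb, a calcitonin gene-related peptide, had 0.0974, 0.506 and 0.275 CPM in CKI libraries, against 15.3, 9.55 and 4.4 CPM in vehicle libraries (-5.07, adjusted p = 0.0103). Lce3f, a late cornified envelope gene, had 0.552, 0.632 and 0.241 CPM in CKI libraries, against 5.81, 31.7 and 5.98 CPM in vehicle libraries (-4.93, adjusted p = 0.0268). Cd209e, a C-type lectin, had 0.13, 0 and 0.448 CPM in CKI libraries, against 2.39, 7.92 and 7 CPM in vehicle libraries (-4.85, adjusted p = 0.0186). By the naming rule, the groups did not overlap for any of these 5 genes. The calls of Tmem212, Calcb, Lce3f and Cd209e were lost without CKI library 1, at adjusted p of up to 0.0511, 0.0541, 0.0953 and 0.0794 over the 6 fits.

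**Figure D2:**
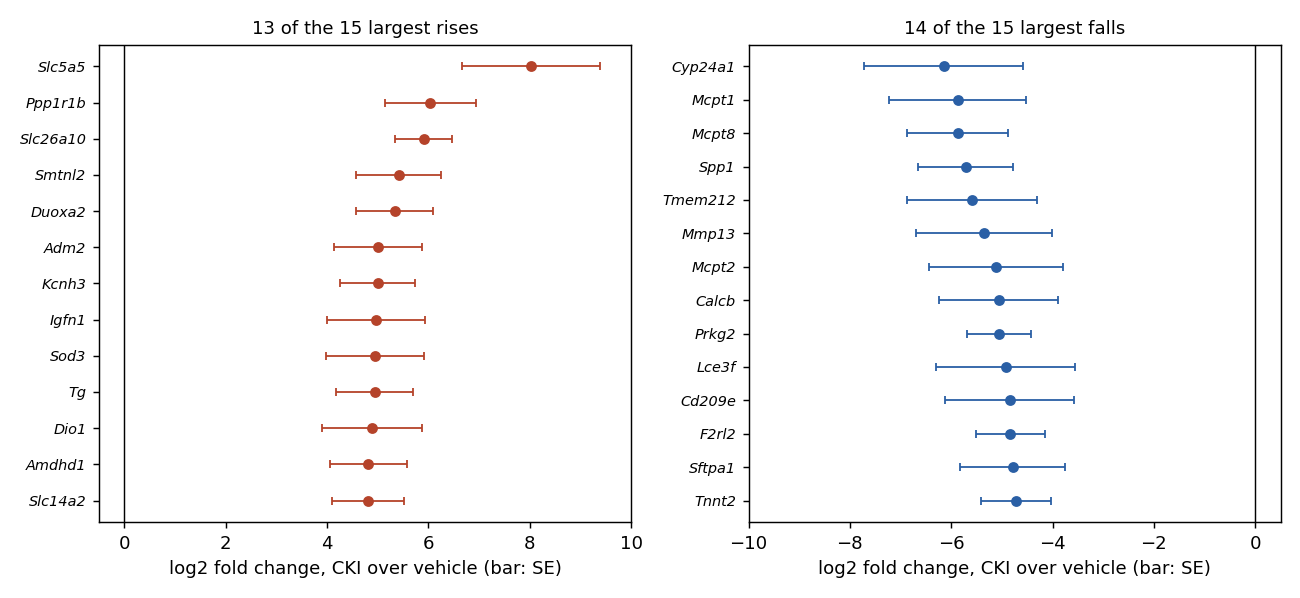
Log2 fold change of CKI over vehicle with its standard error (bars) for 13 of the 15 largest rises (left) and 14 of the 15 largest falls (right), from edgeR's quasi-likelihood fit with 3 libraries in each group. Rises lie between Slc5a5 at 8.03 and Slc14a2 at 4.81, and falls between Cyp24a1 at -6.15 and Tnnt2 at -4.72.

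Feedback and target genes serve as readouts of ERK activity, here in tissue taken about 2 h after the last dose. Of 23 such genes 2 were higher, 3 were lower and 18 did not pass, with a median log2 fold change of 0.337, beside 7.96% and 5.01% of all genes called higher and lower. The share of higher genes is near that of all genes, and none was called higher without vehicle library 2. With the leukocyte level as covariate none of the 23 was called and the median was -0.404. With the immediate early level 1 was lower, 0 were higher and the median was -0.549. The lower genes were Etv4, Spred1 and Etv1. Etv4, an ETS factor of the PEA3 group induced by ERK, had 3.12, 2.06 and 2.48 CPM in CKI libraries, against 29, 27.9 and 32.6 CPM in vehicle libraries. Its log2 fold change was -3.54 ± 0.63 (SE), adjusted p = 0.0022. Its relative Etv1 had 32.1, 47.7 and 52.7 CPM in CKI libraries, against 79.2, 121 and 124 CPM in vehicle libraries (-1.29 ± 0.31 (SE), adjusted p = 0.0123). Spred1, an inhibitor of RAS signalling, had 33.6, 33 and 34.3 CPM in CKI libraries, against 75.4, 108 and 76.9 CPM in vehicle libraries (-1.37 ± 0.24 (SE), adjusted p = 0.00191). No CKI library reached a vehicle library in these 3 genes. Etv1 lost its call without CKI library 1 (adjusted p = 0.068). The third PEA3 factor, Etv5, had 7.82, 17.2 and 24.9 CPM in CKI libraries and 18.8, 25.2 and 45.4 CPM in vehicle libraries, with overlap, and did not pass (-0.84, adjusted p = 0.226).

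Phlda1 and Myc were the higher genes of this list. Phlda1, a pleckstrin-homology protein induced by growth factors, had 154, 132 and 76.8 CPM in CKI libraries, against 19.6, 22.1 and 39.7 CPM in vehicle libraries (2.15, adjusted p = 0.0107), with an adjusted p of 0.0551 without vehicle library 2. Myc, the growth-promoting factor, had 426, 278 and 353 CPM in CKI libraries, against 129, 106 and 168 CPM in vehicle libraries (1.39, adjusted p = 0.0448), and lost the call in each fit without 1 library.

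Apart from Spred1, the feedback inhibitors of ERK in this list, of the DUSP, Sprouty and SPRED families, did not pass in either direction. Dusp6, the ERK phosphatase often used as a pathway readout, had 517, 453 and 425 CPM in CKI libraries and 251, 284 and 618 CPM in vehicle libraries, where vehicle library 5 was above every CKI library and vehicle libraries 2 and 4 were below (0.28 ± 0.44 (SE), adjusted p = 0.73). Log2 fold changes of the other phosphatases were 0.55 for Dusp4, 0.14 for Dusp5 and 0.57 for Dusp7, with adjusted p of 0.657, 0.849 and 0.345. Spry4, a Sprouty inhibitor, had 38.6, 21.3 and 45.4 CPM in CKI libraries and 7.69, 17.9 and 22 CPM in vehicle libraries (1.15, adjusted p = 0.0876), Spry1 had a log2 fold change of 0.79, adjusted p = 0.247, Spry2 of -0.79, adjusted p = 0.158, Spred2 of 0.56, adjusted p = 0.316 and Spred3 of 0.34, adjusted p = 0.73. Ccnd1 (cyclin D1) had 168, 289 and 314 CPM in CKI libraries and 273, 264 and 778 CPM in vehicle libraries, with vehicle library 5 far above all others (-0.77, adjusted p = 0.29). The remaining members were the AP-1 factor Fosl1 (0.53, adjusted p = 0.582), the apoptosis regulator Ier3 (-1.04, adjusted p = 0.107), the ephrin receptors Epha2 (0.7, adjusted p = 0.453) and Epha4 (0.47, adjusted p = 0.518), the small Maf factor Maff (0.81, adjusted p = 0.384), the cytokine Lif (-1.64, adjusted p = 0.274) and the urokinase receptor Plaur (-1.1, adjusted p = 0.132). Of the 23 genes, 16 had every CKI library above the wild-type range, among them Dusp6, Etv4, Ccnd1 and Plaur, and 11 had every vehicle library above it.

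Immediate early genes, which respond within minutes to growth factors, stress or handling, held rises and no fall. Of 25 genes 9 were higher, none was lower and 16 did not pass, beside 7.96% of all genes called higher. Their median log2 fold change was 1.47, and that of all genes was -0.0132. Jun had 2215, 1599 and 479 CPM in CKI libraries, against 61.4, 124 and 228 CPM in vehicle libraries (3.38 ± 0.76 (SE), adjusted p = 0.00913). Ier2 had 1478, 1866 and 532 CPM in CKI libraries, against 59.7, 74.2 and 209 CPM in vehicle libraries (3.5 ± 0.82 (SE), adjusted p = 0.0109). Egr1 had 2748, 1833 and 871 CPM in CKI libraries, against 113, 458 and 392 CPM in vehicle libraries (2.5 ± 0.66 (SE), adjusted p = 0.0185). In all 3 genes CKI libraries 1 and 4 were the highest and CKI library 5 lay between them and the vehicle libraries.

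Socs3, an inhibitor of cytokine signalling, had 945, 543 and 505 CPM in CKI libraries, against 26.2, 89.9 and 148 CPM in vehicle libraries (2.92, adjusted p = 0.00816). The matricellular gene Ctgf had 703, 627 and 303 CPM in CKI libraries, against 26.4, 67.6 and 121 CPM in vehicle libraries (2.92, adjusted p = 0.0175). The phosphatase gene Dusp1 (2.68, adjusted p = 0.0208), Junb (2.29, adjusted p = 0.045), Jund (1.47, adjusted p = 0.0379) and Ier5 (2.24, adjusted p = 0.043) make up the 9. Fos, the partner of Jun in AP-1, had 9024, 7549.8 and 8627 CPM in CKI libraries and 2885, 6897 and 5997 CPM in vehicle libraries and did not pass (0.68, adjusted p = 0.266), nor did Fosb (0.37, adjusted p = 0.617), Atf3 (0.5, adjusted p = 0.595), Nr4a1 (-0.42, adjusted p = 0.559) or Zfp36 (0.87, adjusted p = 0.221). Without vehicle library 2 only 1 of the 25 genes was called, Socs3. Without CKI library 1 3 were called, and with the leukocyte level as covariate none was called.

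The GC content of the transcripts moved with these results. Over all genes tested the median log2 fold change was -0.242 in the tenth of genes with the lowest GC content (25% to 41.4%) and 0.581 in the tenth with the highest (57.6% to 75.7%). The 25 immediate early genes had a median GC content of 54.1%, the 9 higher ones 57.3% and all genes 49.6%. With GC offsets 6 of the 25 were called higher and the median was 0.862. The thyroid hormone genes had a median of 51.4% GC, and 10 of the 18 were called higher with GC offsets. What GC content contributed to these results beyond the offsets was not tested.

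**Figure D3:**
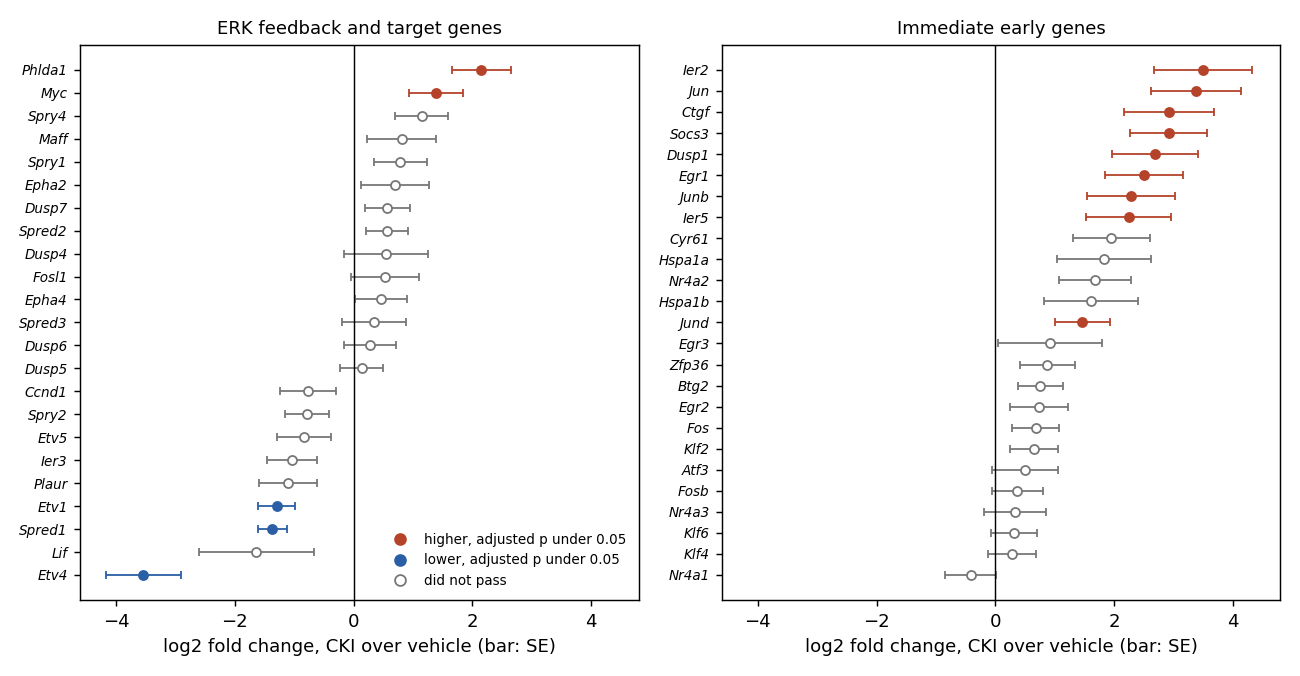
Log2 fold change of CKI over vehicle with its standard error (bars) for 23 ERK feedback and target genes (left) and 25 immediate early genes (right), from 3 libraries in each group. Filled points passed an adjusted p of 0.05. ERK targets scatter on both sides of 0, from Etv4 at -3.54 to Phlda1 at 2.15, while 24 of the 25 immediate early genes lie above 0.

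Calls among receptors, ligands and kinases of the ERK pathway are set beside the 13.0% of all genes called. Of 16 receptor tyrosine kinases 1 was higher and none was lower: Fgfr2, a fibroblast growth factor receptor, had 36.7, 23.8 and 19.9 CPM in CKI libraries, against 5.91, 7.7 and 4.64 CPM in vehicle libraries, without overlap (2.14 ± 0.48 (SE), adjusted p = 0.00872). Erbb2 had 81.1, 62.4 and 52 CPM in CKI libraries and 26.6, 28.5 and 32.4 CPM in vehicle libraries, also without overlap, and missed the threshold (1.16, adjusted p = 0.0567). Erbb3 (-0.3, adjusted p = 0.707) and Egfr (-0.4, adjusted p = 0.675) overlapped. Of 16 growth factor ligands none was higher and 1 was lower, the ErbB ligand Ereg (epiregulin), at 352, 353 and 465 CPM in CKI libraries, against 2329, 645 and 767 CPM in vehicle libraries (-1.68, adjusted p = 0.0388), which had an adjusted p of 0.381 without vehicle library 2. A second ErbB ligand, Areg (amphiregulin), had 336, 706 and 201 CPM in CKI libraries and 97.1, 25.8 and 97.5 CPM in vehicle libraries (2.5, adjusted p = 0.0649). Of 16 RAS, RAF, MEK and ERK pathway genes 2 were higher and 2 lower. Of the higher genes Map2k2, which encodes MEK2, a target of the drug, had 67.8, 86.3 and 22.6 CPM in CKI libraries, against 13.7, 7.02 and 14.8 CPM in vehicle libraries (2.32, adjusted p = 0.0197). Map2k1 (MEK1) did not pass (1.17, adjusted p = 0.11). Nras (-0.95, adjusted p = 0.00998) and Rasa1, a RAS GTPase activator (-0.89, adjusted p = 0.019), were the lower genes. Without 1 library the calls of Map2k2, Nras and Rasa1 were lost at adjusted p of up to 0.0786, 0.0562 and 0.0668.

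No gene of the 3 cell cycle lists was called lower, beside 5.01% of all genes. Of 13 genes of G1 control 1 was higher, Cdkn1c, a cyclin-dependent kinase inhibitor (14.8, 16.1 and 4.2 CPM in CKI libraries, against 1.32, 2.24 and 3.62 CPM in vehicle libraries, 2.28, adjusted p = 0.0354). Of 17 DNA replication genes 1 was higher, the helicase subunit Mcm6 (122, 105 and 58.2 CPM in CKI libraries, against 28.3, 23.1 and 49.2 CPM in vehicle libraries, 1.5, adjusted p = 0.0187), and of 16 mitosis genes 1 was higher, Cdc20, an activator of the anaphase-promoting complex (8.5, 25.7 and 29.1 CPM in CKI libraries, against 2.8, 4.3 and 8.26 CPM in vehicle libraries, 2.04, adjusted p = 0.0185). The median log2 fold changes of the 3 lists were 0.104, -0.131 and -0.0117. The proliferation marker Mki67 had 1.78, 4.97 and 9.09 CPM in CKI libraries and 2.34, 14.8 and 4.56 CPM in vehicle libraries (-0.45, adjusted p = 0.72), with vehicle library 4 the highest and CKI library 1 the lowest. The calls of Cdkn1c, Mcm6 and Cdc20 were each lost without vehicle library 2 or vehicle library 4, at adjusted p of up to 0.129, 0.0815 and 0.0784 over the 6 fits.

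Calls among survival genes went in both directions. Of 12 genes of cell death, most of the BCL2 family, 3 were higher, 3 were lower and 6 did not pass. Of all genes, 7.96% were called higher and 5.01% lower. Bcl2, which blocks cell death at the mitochondrion, had 105, 80.9 and 74 CPM in CKI libraries, against 7.23, 12.6 and 14.4 CPM in vehicle libraries. Between groups it differed by a log2 fold change of 2.92 ± 0.4 (SE), adjusted p = 0.000225. The groups were far apart. The death-promoting genes Bmf (1.67, adjusted p = 0.0253) and Bbc3 (1.72, adjusted p = 0.0271) were higher, while Pmaip1, which also promotes death (-1.4, adjusted p = 0.0269), and the protective Bcl2l1 (-0.84, adjusted p = 0.0391) were among the lower genes. Bcl2l11 (BIM), a death gene under ERK control, had 80.2, 66.5 and 95.3 CPM in CKI libraries and 67.4, 73 and 96 CPM in vehicle libraries and did not pass (0.03, adjusted p = 0.966), nor did Mcl1 (0.06, adjusted p = 0.913). Bcl2 remained called in every fit without 1 library, whereas Bmf, Bbc3 and Pmaip1 lost their calls without CKI library 1, CKI library 4 or vehicle library 2, at adjusted p of up to 0.0972, 0.105 and 0.132. Between 1 and 3 genes of the list were higher, and between 1 and 3 lower, over the 6 fits.

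Among genes that mark papillary thyroid cancer some fell. The 16 genes had a median log2 fold change of -0.778. Of them 4 were lower, none was higher and 12 did not pass, beside 5.01% of all genes called lower. Besides Spp1 the lower genes were Hmga2, Timp1 and Lgals3. Hmga2, an architectural chromatin protein of embryonic and tumour cells, had 5.71, 11.6 and 8.88 CPM in CKI libraries, against 80, 42.5 and 60.2 CPM in vehicle libraries (-2.8 ± 0.39 (SE), adjusted p = 0.000237). Timp1, a metalloproteinase inhibitor, had 37.2, 97.3 and 79.4 CPM in CKI libraries, against 491, 501 and 746 CPM in vehicle libraries (-3.02 ± 0.6 (SE), adjusted p = 0.00444), and Lgals3 (galectin 3) had 328, 694 and 553 CPM in CKI libraries, against 4157, 1104 and 2027 CPM in vehicle libraries (-2.21 ± 0.53 (SE), adjusted p = 0.012). All 4 called genes kept CKI and vehicle libraries apart, beside 15.5% of all genes with every CKI library below every vehicle library. Lgals3 had an adjusted p of 0.0906 without vehicle library 2. Krt19, a keratin used as a marker in pathology, had 831, 901 and 786 CPM in CKI libraries and 2309.7, 993 and 1461 CPM in vehicle libraries (-0.92, adjusted p = 0.381), and Fn1 (fibronectin) had 258, 117 and 407 CPM in CKI libraries and 371, 3637 and 1411 CPM in vehicle libraries, with vehicle library 2 inside the CKI range (-2.79, adjusted p = 0.0555). Relative to wild type, 9 of the 16 genes still had every CKI library above the wild-type range, against 10 for vehicle libraries. Spp1 spanned 81.1 to 272 CPM, Hmga2 0.64 to 1.43 CPM and Timp1 1.43 to 4.35 CPM in wild-type libraries.

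Among matrix and adhesion genes most calls were of falls, beside 5.01% of all genes called lower and 7.96% called higher. In the adhesion, TGF-beta and mesenchymal lists, with 1 lower gene each, the share was near that of all genes. Of 11 metalloproteinases and inhibitors 1 was higher and 4 were lower, Timp1 among them. Mmp12, the macrophage elastase, had 33.5, 12.7 and 15.4 CPM in CKI libraries, against 209, 362 and 214 CPM in vehicle libraries (-3.67, adjusted p = 0.0132), and its log2 fold change was 0.0852 with the leukocyte level as covariate. Mmp13, a collagenase, had 0.389, 1.39 and 0.413 CPM in CKI libraries, against 2.75, 56 and 30 CPM in vehicle libraries (-5.35, adjusted p = 0.0148). Mmp11 (stromelysin 3) was higher, at 88.5, 61 and 81.9 CPM in CKI libraries, against 9.32, 9.77 and 19.8 CPM in vehicle libraries (2.57 ± 0.47 (SE), adjusted p = 0.00239). Of 12 integrin, laminin and adhesion genes 1 was lower, Cd44, a hyaluronan receptor, at 359, 444 and 596 CPM in CKI libraries, against 1064, 1306 and 1109 CPM in vehicle libraries (-1.31 ± 0.27 (SE), adjusted p = 0.00514). Of 13 genes of the TGF-beta family 1 was lower, the activin subunit Inhba, at 12.3, 17.7 and 33 CPM in CKI libraries, against 59.3, 100 and 193 CPM in vehicle libraries (-2.48, adjusted p = 0.0196), and 1 of 12 mesenchymal genes, S100a4, at 5.42, 17.2 and 23.5 CPM in CKI libraries, against 129, 105 and 104 CPM in vehicle libraries (-2.87, adjusted p = 0.0106). None was higher in either list. Vim (vimentin) did not pass (-1.2, adjusted p = 0.132). Without CKI library 1 the calls of Mmp13, Inhba and S100a4 were lost, at adjusted p of 0.0694, 0.0909 and 0.0548, and that of Mmp12 was lost without CKI library 4 (adjusted p = 0.0616).

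Among epithelial genes some junction genes were higher and some epidermal genes lower, beside 7.96% and 5.01% of all genes. Of 12 junction genes 3 were higher and none was lower: Cdh16, a kidney- and thyroid-type cadherin, had 327, 214 and 406 CPM in CKI libraries, against 33.5, 50 and 39.7 CPM in vehicle libraries (2.94 ± 0.56 (SE), adjusted p = 0.00362), the junction protein Cgn (cingulin) had 71.6, 67.8 and 126 CPM in CKI libraries, against 17, 41 and 29.8 CPM in vehicle libraries (1.59, adjusted p = 0.0121). The epithelial splicing factor Esrp2 had 79.4, 55.5 and 56.6 CPM in CKI libraries, against 11.5, 13 and 21.5 CPM in vehicle libraries (2.06, adjusted p = 0.0302). Cdh1 (E-cadherin) had 773, 554 and 907 CPM in CKI libraries and 435, 368 and 548 CPM in vehicle libraries, without overlap, and did not pass (0.73, adjusted p = 0.105). Of 11 keratins 1 was lower, Krt20, a keratin of intestinal and urothelial epithelium, at 19, 117 and 43.5 CPM in CKI libraries, against 1099, 549.7 and 531 CPM in vehicle libraries (-3.6 ± 0.85 (SE), adjusted p = 0.011). Of 10 genes of the epidermal differentiation cluster 4 were lower, none higher: S100a6 (43.3, 213 and 229.5 CPM in CKI libraries, against 1575, 658 and 918 CPM in vehicle libraries, -2.7, adjusted p = 0.00695), S100a14 (-2.8, adjusted p = 0.0303), S100a10 (-1.32, adjusted p = 0.0306) and the cornified envelope gene Ivl (-2.71, adjusted p = 0.0495). Without vehicle library 2 S100a10 and S100a14 had adjusted p of 0.34 and 0.199, and Cgn and Esrp2 of 0.0578 and 0.107. Krt20 had 0.0566 without CKI library 1, and Ivl lost its call in all 6 fits.

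Surfactant genes, normally of lung epithelium, were abundant in the vehicle libraries. Of 11 genes 3 were lower, none was higher and 8 did not pass, beside 5.01% of all genes called lower. Their median log2 fold change was -0.442. Sftpa1, a surfactant collectin, had 603, 2713 and 1702 CPM in CKI libraries, against 68014, 27463 and 43228 CPM in vehicle libraries (-4.79 ± 1.04 (SE), adjusted p = 0.00732). Its relative Sftpd had 1052, 3044 and 1331 CPM in CKI libraries, against 19354, 7419 and 11426 CPM in vehicle libraries (-2.82, adjusted p = 0.0299). Both were far lower in wild-type libraries, at 2.82 to 7.05 CPM and 1.18 to 2.02 CPM. Lamp3, a lysosomal membrane protein of alveolar and dendritic cells, had 3.8, 7.04 and 2.62 CPM in CKI libraries, against 17.7, 159 and 14.4 CPM in vehicle libraries, with vehicle library 4 far above the rest (-3.83, adjusted p = 0.0362). Its log2 fold change was 0.81 with the leukocyte level as covariate. Sftpb had 572, 1016 and 906 CPM in CKI libraries and 2196, 3751 and 2595 CPM in vehicle libraries and did not pass (-1.78, adjusted p = 0.096), and the airway secretory gene Scgb1a1 was at 58.8, 1.31 and 0.723 CPM in CKI libraries and 3.67, 0.434 and 16.9 CPM in vehicle libraries (1.53, adjusted p = 0.552). The call of Sftpd was lost without CKI library 1 (adjusted p = 0.125) and that of Lamp3 without vehicle library 4 (adjusted p = 0.274).

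Metabolic, protein folding and SWI/SNF genes were counted next, beside 7.96% of all genes called higher and 5.01% called lower. Of 16 glycolysis and hypoxia genes 1 was higher and 4 were lower: the angiogenic factor Vegfa had 216, 161 and 90.1 CPM in CKI libraries, against 46, 31 and 43.8 CPM in vehicle libraries (1.95, adjusted p = 0.013), while Ldha (-0.95, adjusted p = 0.0131), Pkm2 (-1.19, adjusted p = 0.0213), Pgk1 (-0.93, adjusted p = 0.0214) and the carbonic anhydrase Car9 (-2.05, adjusted p = 0.0352) were lower. Of 15 genes of protein folding in the endoplasmic reticulum 3 were higher, Pdia3, a disulfide isomerase, at 2382, 2718 and 1366 CPM in CKI libraries, against 446, 279 and 775 CPM in vehicle libraries (2.11 ± 0.48 (SE), adjusted p = 0.00968), Creld2 (2.24, adjusted p = 0.0208) and Sdf2l1 (2.1, adjusted p = 0.0373). Hspa5 (BiP), the main chaperone there, did not pass (-0.05, adjusted p = 0.958). Of 12 sterol and fatty acid genes 1 was higher, the regulator Srebf1 (1.71, adjusted p = 0.0226). None of 16 respiratory chain genes was called. Among 19 SWI/SNF subunits 3 were higher, Smarcd3 (2.8, adjusted p = 0.0145), Smarcd2 (1.25, adjusted p = 0.0321) and Smarcc1 (1.37, adjusted p = 0.0391), whereas Smarca4 (0.26, adjusted p = 0.698), Arid1a (0.42, adjusted p = 0.552), Arid2 (0.86, adjusted p = 0.11) and Smarcb1 (1.05, adjusted p = 0.228) did not pass. Of the 12 genes called in these lists only Pdia3 remained called in every fit without 1 library. The others reached adjusted p between 0.0599 for Smarcd3 and 0.16 for Smarcc1.

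Leukocyte genes were lower under CKI. All 7 leukocyte markers passed as lower, with a median log2 fold change of -2.48, beside 5.01% of all genes called lower. Their CPM summed to 293, 153 and 203 in CKI libraries, against 773, 1389 and 976 in vehicle libraries. Cd53, a leukocyte tetraspanin, had 20.5, 10 and 15 CPM in CKI libraries, against 117, 153 and 128 CPM in vehicle libraries (-3.13 ± 0.65 (SE), adjusted p = 0.0062). Coro1a had 22.5, 11.2 and 14.1 CPM in CKI libraries, against 96.3, 151 and 116 CPM in vehicle libraries (-2.93 ± 0.62 (SE), adjusted p = 0.00695), and Ptprc (CD45), the defining leukocyte antigen, had 28.3, 5.31 and 8.61 CPM in CKI libraries, against 35, 115 and 71.1 CPM in vehicle libraries (-2.39, adjusted p = 0.0353). Groups did not overlap in these genes, although CKI library 1 came close to vehicle library 2 for Ptprc. Without CKI library 4, 4 of the 7 markers were called, the lowest number over the 6 fits. If the sorting text of the labels holds for these libraries, leukocytes should have been removed, so these levels are given as measured, and where the transcripts came from was not tested.

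Most macrophage markers fell as well. Of 11 macrophage markers 7 were lower and 4 did not pass, beside 5.01% of all genes called lower. Their CPM summed to 442, 185 and 198 in CKI libraries, against 1101, 1627 and 1083 in vehicle libraries. Cd14, a receptor for bacterial lipopolysaccharide, had 102, 40.2 and 39.4 CPM in CKI libraries, against 393, 443 and 332 CPM in vehicle libraries (-2.68 ± 0.58 (SE), adjusted p = 0.00732). Mrc1, the mannose receptor, had 10.3, 2.57 and 3.68 CPM in CKI libraries, against 31.9, 128 and 53.2 CPM in vehicle libraries (-3.68, adjusted p = 0.0109). The Fc receptor gene Fcgr1 had 2.04, 1.47 and 1.14 CPM in CKI libraries, against 12, 13.2 and 11.6 CPM in vehicle libraries (-2.98, adjusted p = 0.0132). Csf1r, the growth factor receptor of macrophages, overlapped through CKI library 1 and did not pass (-1.92, adjusted p = 0.111), and neither did the engulfment receptor gene Mertk (-0.06, adjusted p = 0.917). With the leukocyte level as covariate Mrc1 and Cd68 had log2 fold changes of 0.0625 and 0.0331, Cd163 of 0.00405 and Ctss of 0.66. Without CKI library 4, 1 of the 11 macrophage markers was called.

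Of 10 mast cell and basophil genes 7 were lower, beside 5.01% of all genes called lower. Their median log2 fold change was -5.72, or -5.34 with genes that have a group at 0 counts set at their bounds. Mcpt8, a basophil protease, had 19.8, 68 and 22.9 CPM in CKI libraries, against 4299, 341 and 1816 CPM in vehicle libraries (-5.87 ± 1.0 (SE), adjusted p = 0.00138). Mcpt1 had 1.23, 4.47 and 0.792 CPM in CKI libraries, against 272, 23.3 and 83.2 CPM in vehicle libraries (-5.87 ± 1.35 (SE), adjusted p = 0.0109), and Mcpt2 0.389, 0.969 and 1.17 CPM in CKI libraries, against 62.3, 6.19 and 19.1 CPM in vehicle libraries (-5.11 ± 1.32 (SE), adjusted p = 0.0206). The Mcpt genes belong to a family of related sequences, and how reads were shared between its members was not examined. All 3 were highest in vehicle library 2 and lowest, among vehicle libraries, in library 4. The mast cell carboxypeptidase Cpa3 had the opposite order, at 0, 0 and 0 CPM in CKI libraries and 0, 8.93 and 2.36 CPM in vehicle libraries, and was at least 118-fold lower in CKI libraries by a floor of 3 counts over the group. Cma1 had 0, 0.0421 and 0.551 CPM in CKI libraries, against 1.12, 5.1 and 2.32 CPM in vehicle libraries (-3.81, adjusted p = 0.045). Tpsb2 had 0.0325, 0.0843 and 0 CPM in CKI libraries, against 0, 9.26 and 2.99 CPM in vehicle libraries. The alpha chain of the IgE receptor, Fcer1a, which defines these cells, was at 0 counts in all CKI libraries and at 0, 1.12 and 0.157 CPM in vehicle libraries. Vehicle library 2, the highest for Mcpt8, Mcpt1 and Mcpt2, had 0 CPM for Cpa3, Tpsb2 and Fcer1a. The summed level of the list, most of it Mcpt8, was 24.2, 75.3 and 27.4 CPM in CKI libraries, against 4635, 416 and 1936 CPM in vehicle libraries. Mcpt8 remained called in each fit without 1 library, and Mcpt1 and Mcpt2 had adjusted p of 0.056 and 0.0882 without vehicle library 2. Over the 6 fits 1 to 6 genes of the list were called.

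Lymphocyte and neutrophil markers were low, and their calls are set beside 5.01% of all genes called lower. Of 8 T cell markers 2 were lower, Cd2 (2.99, 0.379 and 0.689 CPM in CKI libraries, against 4.53, 12.9 and 13.8 CPM in vehicle libraries, -2.93, adjusted p = 0.0252) and the interleukin receptor Il7r (-2.4, adjusted p = 0.0369). The defining Cd3e had 3.02, 1.14 and 1.14 CPM in CKI libraries and 0.357, 5.9 and 13.4 CPM in vehicle libraries and overlapped (-1.89, adjusted p = 0.166). None of 4 B cell markers was called, and Ms4a1 was at 0 counts in CKI libraries. Of 5 neutrophil markers 2 were lower, S100a8 (-3.22, adjusted p = 0.0337) and the chemokine receptor Cxcr2 (-3.62, adjusted p = 0.0443). The calls of Cd2, Il7r, S100a8 and Cxcr2 were lost without CKI library 5, among others, at adjusted p of up to 0.101, 0.136, 0.139 and 0.144.

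Some chemokine and class II antigen presentation genes were lower beside these markers. Of 24 chemokines 8 were lower, none was higher and 16 did not pass, beside 5.01% of all genes called lower. Their median log2 fold change was -1.98. Cxcl2, which attracts neutrophils, had 73.4, 39 and 45.4 CPM in CKI libraries, against 430.0, 249 and 179 CPM in vehicle libraries (-2.44 ± 0.43 (SE), adjusted p = 0.00191). Ccl9 had 22.4, 16.3 and 24.7 CPM in CKI libraries, against 215, 251 and 158 CPM in vehicle libraries (-3.3 ± 0.73 (SE), adjusted p = 0.0085). Ccl6 had 85.8, 93.6 and 99.5 CPM in CKI libraries, against 979.7, 932 and 787 CPM in vehicle libraries (-3.27, adjusted p = 0.0128). No CKI library reached a vehicle library in these 3. Ccl17, a T cell attractant, had 1.1, 2.23 and 4.34 CPM in CKI libraries, against 68.8, 49.1 and 33 CPM in vehicle libraries (-4.3, adjusted p = 0.0127). Ccl2, a monocyte attractant, had 25.4, 12.2 and 8.68 CPM in CKI libraries, against 114, 114 and 51.6 CPM in vehicle libraries (-2.59, adjusted p = 0.0216). With the leukocyte level as covariate the median of the chemokines was -0.185, and without CKI library 4 only Cxcl2 and Ccl9 were called. The other lower genes were Ccl3, Ccl4 and Cxcl3.

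Class II and class I calls are set beside 5.01% of all genes called lower and 7.96% called higher. Of 7 class II genes 4 were lower and none was higher, with a median of -1.30: H2-DMb1 (-1.3, adjusted p = 0.0108), H2-DMa (-1.43, adjusted p = 0.0213), H2-Aa (235, 87.1 and 118 CPM in CKI libraries, against 551, 820.5 and 477 CPM in vehicle libraries, -2.07, adjusted p = 0.023) and H2-Eb1 (-1.88, adjusted p = 0.0359). With the leukocyte level as covariate H2-Aa and H2-Eb1 had log2 fold changes of 0.196 and 0.238, and without CKI library 4 none of the 7 was called. Of 12 class I genes 2 were higher and none was lower, H2-D1 (3317, 3149.9 and 2466 CPM in CKI libraries, against 943, 720.2 and 1443 CPM in vehicle libraries, 1.52, adjusted p = 0.033) and H2-K1 (1.25, adjusted p = 0.0386), which share reads with close relatives and lost their calls without CKI libraries 1 or 4 or vehicle libraries 2 or 4 (up to adjusted p = 0.119 and 0.14). B2m, their shared light chain, had 935, 1285 and 1328 CPM in CKI libraries and 1926, 1879.7 and 1639 CPM in vehicle libraries (-0.62, adjusted p = 0.13). Of 20 interferon-stimulated genes 1 was lower, Mx1 (0.422, 0.885 and 0.654 CPM in CKI libraries, against 7.9, 8.75 and 11.2 CPM in vehicle libraries, -3.83 ± 0.81 (SE), adjusted p = 0.00671), and 1 was higher, the signalling factor Stat2 (1.0, adjusted p = 0.048), with a median of -0.214. Neither interferon share was above that of all genes, of which 5.01% were called lower and 7.96% higher. None of 10 acute phase genes was called.

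Vessel and connective tissue markers varied widely between libraries of the same treatment. Summed over 11 endothelial markers, CPM were 697, 202 and 751 in CKI libraries and 36.0, 757 and 333 in vehicle libraries. Over 9 fibroblast markers they were 7326, 1496 and 2887 in CKI libraries and 959, 22290 and 5368 in vehicle libraries. Vehicle library 2 was the lowest library in both lists and vehicle library 4 the highest. Plvap, a protein of fenestrated endothelium, had 57.6, 19.2 and 14.5 CPM in CKI libraries, against 0.713, 6.44 and 8.06 CPM in vehicle libraries (2.58, adjusted p = 0.0242). Flt1, a VEGF receptor, had 84.7, 34.3 and 43.2 CPM in CKI libraries, against 7.23, 28.1 and 25.6 CPM in vehicle libraries (1.41, adjusted p = 0.0307). Both calls were lost without CKI library 1 or vehicle library 2, at adjusted p of up to 0.159 and 0.201. Pecam1, a pan-endothelial marker, had 98.4, 25.2 and 139 CPM in CKI libraries and 7.79, 226 and 73.8 CPM in vehicle libraries (-0.23, adjusted p = 0.884). No fibroblast, smooth muscle, skeletal muscle, fat, parathyroid, red cell or cartilage marker was called. Among 5 C cell markers Calcb was lower, as above, and Chgb passed as higher at 0.227, 0.126 and 1.17 CPM in CKI libraries and 0, 0 and 0.0393 CPM in vehicle libraries, 1 count in all vehicle libraries, so no fold is given.

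**Figure D4:**
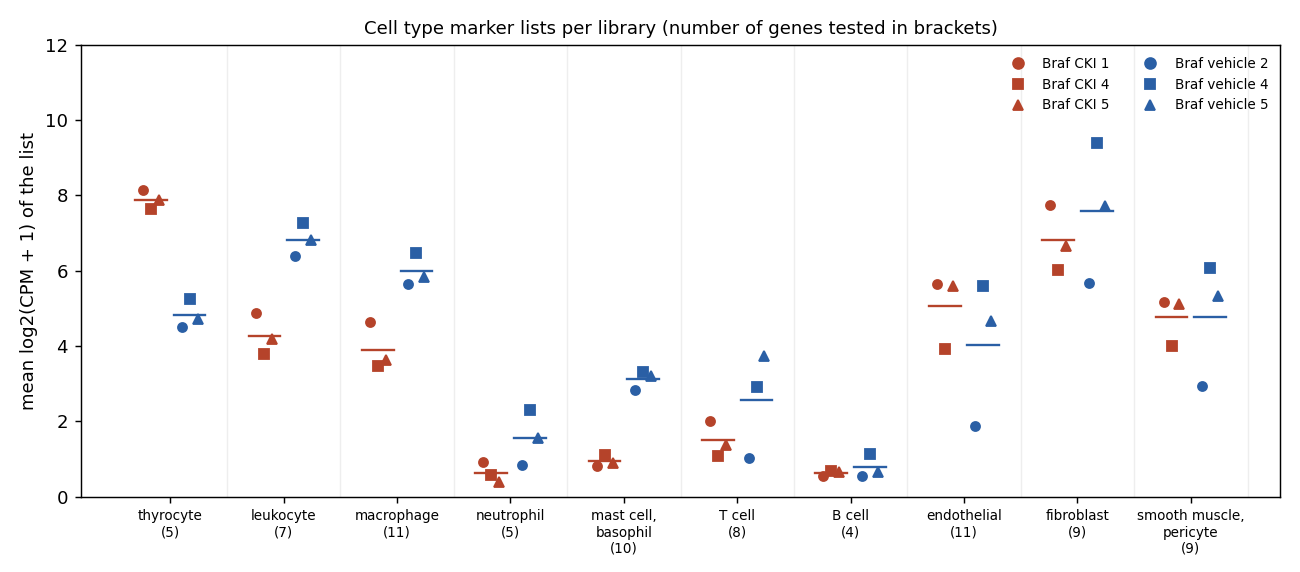
Mean log2 of CPM plus 1 over each cell type marker list (number of genes in brackets) in each Braf library. Symbols separate the libraries and short lines are group means (n = 3 each). Thyrocyte markers lie higher, and leukocyte, macrophage and mast cell and basophil markers lower, in every CKI library than in any vehicle library. Endothelial and fibroblast markers spread widely, with vehicle library 2 lowest.

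Whether the drug response of Braf V600E thyroids differs when a SWI/SNF subunit is also lost was tested as a difference of log2 fold changes, Braf alone minus the knockout. No gene differed from the Arid1a knockout (0 of 19016), where 2018 had an unadjusted p under 0.05 and DESeq2 called 164. Differences from the Arid2 knockout, of which each group had 2 libraries, were called for 1647 genes (8.66%), 1367 (7.19%) higher and 280 (1.47%) lower in Braf alone, a share of 83% higher that was 67.9% by DESeq2. Without CKI library 1 717 genes were called, and with the immediate early level as covariate none was called, while 1629 had an unadjusted p under 0.05. From the Smarcb1 knockout 58 genes differed (0.305%), 37 (0.195%) higher and 21 (0.110%) lower in Braf alone, and leaving out 1 library left between 23 and 38.

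Against Smarcb1 loss the differing genes include the iodide symporter gene and the thyrotropin receptor gene. Slc5a5 had a log2 fold change of 8.03 in Braf alone and 0.15 in the Smarcb1 knockout, a difference of 7.88 ± 1.59 (SE, adjusted p = 0.0311), which was lost without CKI library 1, vehicle library 2 or vehicle library 4, at adjusted p of up to 0.138 over all alternatives. Tshr had 4.69 in Braf alone and 1.99 in the knockout (difference 2.7, adjusted p = 0.0448), and this difference was lost in 12 of 16 alternative fits, without CKI libraries 1 or 5 or any vehicle library among them. Bcl2 was at 2.92 in Braf alone and -0.87 in the knockout (difference 3.79, adjusted p = 0.0045), and Elovl6, a fatty acid elongase, at 2.71 in Braf alone and -0.69 in the knockout (difference 3.39, adjusted p = 0.00104). The anion exchanger gene Slc26a10 differed by 4.39 (adjusted p = 0.00739), the amino acid transporter gene Slc38a1 by 2.18 (0.00981) and the glutathione transferase gene Gstm1 by -2.55 (0.00921). For Tg, 4.94 in Braf alone and 4.65 in the knockout, and Pax8, 1.98 and 1.65, no difference was detected (adjusted p = 0.946 and 0.853).

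Against Arid2 loss the differing genes include the ERK feedback inhibitors Spry4, Spred2 and Dusp6, none of which passed in Braf alone. Spry4 had a log2 fold change of 1.15 in Braf alone and -1.53 in the Arid2 knockout (difference 2.67 ± 0.7 SE, adjusted p = 0.0231) and -2.36 in the Smarcb1 knockout (difference 3.51, adjusted p = 0.0165). Spred2 had 0.56 in Braf alone and -1.89 in the Arid2 knockout (adjusted p of the difference 0.0165), and Dusp6 0.28 in Braf alone and -1.98 in the knockout (0.0484). Etv4, lower in Braf alone at -3.54, had -2.13, -2.46 and -2.68 in the Arid1a, Arid2 and Smarcb1 knockouts, with no difference called (adjusted p from 0.516 to 0.733). Among thyroid genes Slc26a4 differed by 6.56 (adjusted p = 0.0192), Hhex by 3.71 (0.0205) and Dio2 by -4.61 (0.038). The 5 genes with the smallest p against Arid2 loss were the peroxisomal gene Tmem135, the kinase gene Map4k1, Zfp692, the histone variant gene H2afy2 and Schip1, with differences of 3.84, 6.5, 4.06, 3.35 and 3.69, each at an adjusted p of 0.0123. Against Arid1a loss the 5 smallest p belonged to Insc, Ppara, Tshr, Fbp2 and Dhrs3, with adjusted p between 0.0917 and 0.106. The Arid2 and Smarcb1 thyroids were flash frozen by the labels and cells of Braf alone may have been sorted, and preparation and genotype cannot then be told apart.

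**Figure D5:**
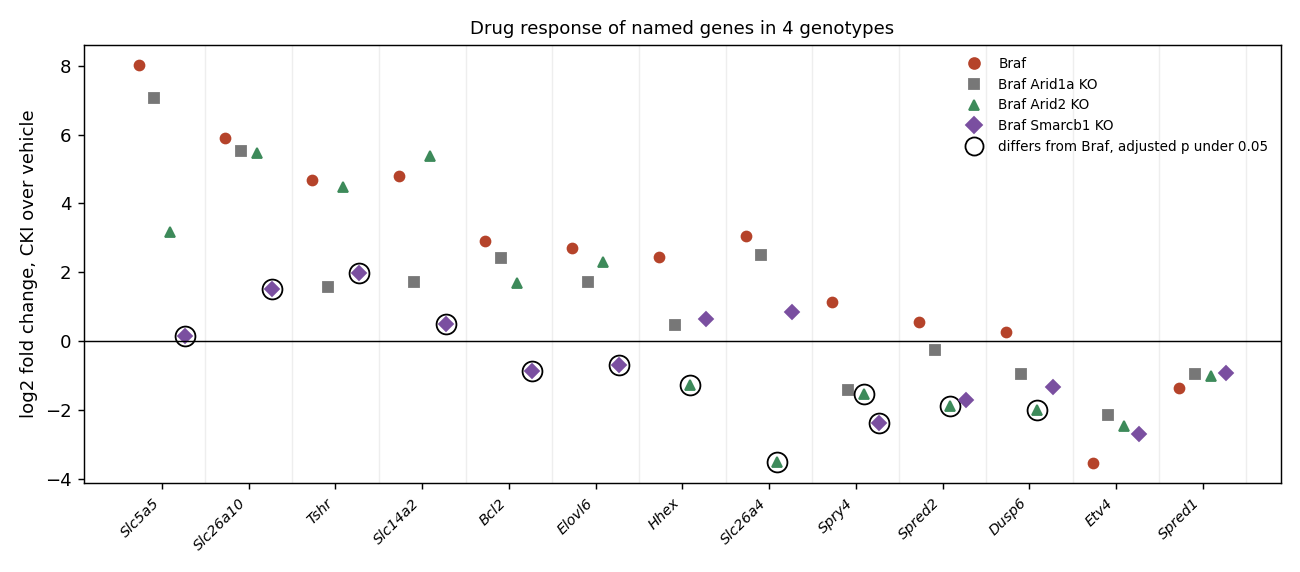
Log2 fold change of CKI over vehicle for 13 named genes in Braf V600E thyroids and in those that also lack Arid1a, Arid2 or Smarcb1. Rings mark responses that differ from that of Braf alone at an adjusted p under 0.05. Slc5a5 lies at 8.03 in Braf alone and 0.15 in the Smarcb1 knockout, while Etv4 and Spred1 are below 0 in all 4 genotypes.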

How the data were processed

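RNA was sequenced from 28 mouse thyroid libraries in 10 groups. The labels list 30 libraries, of which 2 were not analysed here. These were a CKI and a vehicle library of the Arid2 knockout, for which no column was matched among the deposited counts. Per the submitters' processing notes, reads were aligned to mm9 with STAR 2.4 and counted with HTSeq 0.6.1, and DESeq2 was used; the labels name a TruSeq RNA kit, and strand use in counting is not given in the sources used here. The deposited values are raw read counts for 33924 genes, as the authors made them, with no normalization.

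From these counts, 19016 genes passed edgeR's expression filter (edgeR 4.0.16, R 4.3.3). One quasi-likelihood model with TMM factors and a term per group was fitted to all 28 libraries, with Benjamini-Hochberg adjustment across the genes tested and a threshold of 0.05. CPM were computed from the counts with TMM-scaled library sizes. Standard errors are the absolute log2 fold change over the square root of the F statistic. The chi-square of replicate pairs was far above sampling noise, so no library was treated as a repeat sequencing of another. This check cannot show whether libraries are separate animals, because it does not separate differences between animals from differences between preparations. The comparison of CKI and vehicle was also tried on simulated data for 18652 genes. In this trial 100 genes were set to differ by each of 2 sizes. At the 4-fold size 62% of these were recovered, but at the 2-fold size only 6%. Another 4 genes were called wrongly. A gene that did not pass may therefore still have changed 2-fold. The trial covered no difference between genotypes. With a group at 0 counts, a fold is a bound from a floor of 3 counts over the group; floors cover counting error only. GC content came from the longest transcript of each gene in a mouse annotation (96.9% of genes tested matched).

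The members and lists were chosen with earlier results of these data known. Genes named are the 15 largest rises and falls that were called, did not overlap and averaged 5 CPM or more where they were higher, with predicted, antigen receptor and pseudogenes left out; every member of the thyroid and ERK target lists; up to 5 called members of each other list, with its defining members; the 5 smallest p of each difference between genotypes; and Braf and sex-linked genes. Further list members were named after their values were seen. Some genes that this rule takes are not reported here.

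Alternatives were other size factors (RLE), no filter, DESeq2 1.42.0, the groups compared alone, a replicate block, covariates for leukocyte, immediate early and Y-linked level, each of the 6 Braf libraries left out, and, chosen after seeing the data, GC content offsets with and without length.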

Additional observations from a re-analysis of the deposited data

Results flagged for a closer look

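The following results were marked because the drug response of Braf V600E thyroids differed from that of a knockout in a test of the difference itself (log2 fold change in Braf alone minus that in the knockout, edgeR's quasi-likelihood test). No explanation was tested.

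Against the Arid2 knockout, genes of the ERK pathway that differed were Dusp6 by 2.26 (adjusted p = 0.0484), Phlda1 by 2.70 (0.0345), Spred2 by 2.45 (0.0165) and Spry4 by 2.67 (0.0231). Thyroid genes that differed were Slc26a4 by 6.56 (adjusted p = 0.0192), Hhex by 3.71 (0.0205) and Dio2 by -4.61 (0.038). Ppp1r1b differed by 4.27 (adjusted p = 0.0297). Map4k1 by 6.50, Zfp692 by 4.06, Tmem135 by 3.84, Schip1 by 3.69 and H2afy2 by 3.35 each had an adjusted p of 0.0123. With the immediate early level as covariate no gene was called in this comparison.

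Against the Smarcb1 knockout, Slc5a5 differed by 7.88 (adjusted p = 0.0311), Amdhd1 by 5.31 (0.0167), Slc26a10 by 4.39 (0.00739), Slc14a2 by 4.32 (0.0361) and Bcl2 by 3.79 (0.0045). Spry4 differed by 3.51 (adjusted p = 0.0165), Elovl6 by 3.39 (0.00104), Tshr by 2.70 (0.0448), Slc38a1 by 2.18 (0.00981) and Gstm1 by -2.55 (0.00921). Of these, Elovl6 and Slc26a10 were called in each of the 16 alternatives.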

How the results depend on the processing

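The count of genes called between CKI and vehicle (2466) was 3899 by DESeq2, 1367 with only the groups compared, 94 with the leukocyte and 120 with the immediate early level as covariate, and between 726 and 2453 when 1 library was left out. It lay within 1.5 times the first count with RLE factors (2562), no filter (1983), the Y-linked level (2747), GC offsets (2423) and GC and length offsets (2628). The share of higher genes was 61.4% at first, 54.7% with RLE factors and 51.7% by DESeq2. Differences from the Arid1a knockout (0) numbered 1 without a filter, 164 by DESeq2 and 3 with the leukocyte covariate. Differences from the Arid2 knockout (1647) numbered 2871 by DESeq2, 0 with the immediate early covariate and 717 to 2050 without 1 library. Differences from the Smarcb1 knockout (58) numbered 264 by DESeq2, 5 with only the groups compared, 10 with the leukocyte covariate and 23 to 38 without 1 library. Of the named genes called in the first fit, 8 turned direction with the leukocyte covariate. Their log2 fold changes became 0.66 for Ctss, 0.0852 for Mmp12, 0.81 for Lamp3, 0.196 for H2-Aa, 0.238 for H2-Eb1, 0.0625 for Mrc1, 0.0331 for Cd68 and 0.00405 for Cd163. Uncalled genes that turned were not counted. List medians turned too, from 0.337 to -0.404 for ERK targets and from -0.583 to 0.261 for thyroglobulin uptake and proteolysis. The fit with only the groups compared has fewer libraries to estimate the spread; for the other changes the cause was not tested.

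The CKI and vehicle libraries share only replicate numbers 4 and 5, and no label says that a number marks an animal or day. With the replicate number as a block, 2146 genes were called between CKI and vehicle, of which 1907 were among the 2466, and 31 genes differed from the Smarcb1 knockout.

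Results under the alternatives were counts of calls, list medians and values of single genes. Of called genes 553 values lost the call, and of uncalled genes 16 gained it. A total of 4483 values were counted as unchanged. These were called genes that kept call and direction, and counts of calls within 1.5 times the first. They also include uncalled genes and list medians that moved within the spread between replicates, whatever their direction. Another 472 counts, medians or uncalled genes moved beyond these limits. Groups of 3 libraries, mixed sex markers, the low gene number of vehicle library 2 and the high fibroblast level of vehicle library 4 limit these comparisons, and genes under the floor of about 0.0974 to 0.153 CPM cannot be told from 0.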
